A study of Mus musculus with 48 samples.

Results

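The serine and arginine-rich (SR) protein genes were followed through cyclic stretch in mouse C2C12 cells, in myoblasts and in differentiated cells. The 10 genes are Srsf1, Srsf2, Srsf3, Srsf4, Srsf5, Srsf6, Srsf7, Srsf9, Srsf10 and Srsf11, taken by symbol from the 47480 gene symbols of the count tables. C2C12 is an immortalized mouse myoblast line that fuses into multinucleated myotubes when serum is lowered. The 48 RNA-seq libraries formed 12 groups of 4, which were myoblasts or differentiated cells, kept without stretch or stretched, for 1, 3 or 6 h. Per the study's methods, stretch was cyclic and equibiaxial on flexible collagen-coated plates, and the non-stretched cells sat on the same kind of plates for the same time. Myoblasts were stretched while undifferentiated, and differentiated cells after several days in medium with horse serum. Library titles carry a B code that the labels do not explain, and it is taken here as the experiment. Myoblast libraries carried B27 (replicates 7 and 8) and B31 (replicates 9 and 10). Differentiated libraries carried B25 (replicates 7 and 8) and B28 (replicates 9 and 10). The stretched 1 h group instead held replicates 4, 7, 8 and 9, with replicate 4 coded B17, a code of no other library. For differentiated cells the methods give 3 experiments, with 2 samples from 1 of them and 1 from each of the others. The codes match that only in the stretched 1 h group. The study's methods describe separate samples within independent experiments, so libraries of 1 experiment share it, and p-values measure the spread between these libraries.

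SR proteins carry RNA recognition motifs and a domain rich in arginine and serine repeats, bind exonic enhancers in pre-mRNA and recruit the splicing machinery to nearby splice sites. Kinases of the CLK and SRPK families phosphorylate the repeat domain, which controls where an SR protein sits in the cell and what it binds. Many SR genes limit their own level through alternative "poison" exons whose inclusion sends the mRNA to nonsense-mediated decay (NMD), and in muscle the exon choices of contractile and membrane genes change during differentiation.

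The libraries held 48447318 to 77080730 counts each, and no SR gene had fewer than 1770 counts in any library. Values are CPM, a gene's counts scaled to a common library size by TMM over all 48 libraries, and fold changes are log2 values from edgeR. The summed level of 8 differentiated muscle markers, among them myogenin and myosin heavy chains, was 19.4 to 64.3 CPM in myoblast libraries and 12690 to 22480 CPM in differentiated libraries. Of 7 dividing-myoblast markers, Pax7 was higher in differentiated cells (median 32.1 CPM against 27.1 in myoblasts) and the others had lower medians there. The summed level of the 7 was 1745 to 2114 CPM in myoblasts and 295 to 741 CPM in differentiated cells. The 741 CPM was in replicate 4 of the stretched 1 h group. That library also held 3115 CPM of the early stretch genes Egr1, Fos, Ctgf and Cyr61, against a group median of 1106 CPM. Of 4 fat cell markers, Adipoq and Plin1 reached at most 2 counts and Fabp4 at most 9 in any library, while Pparg was at 15.1 to 18.8 CPM in myoblasts and 6.13 to 8.49 CPM in differentiated cells, and the summed blood and endothelial markers at most 0.453 CPM.

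All 10 genes are annotated in GENCODE vM21 on GRCm38 with more than 1 transcript, and 9 of them with at least 1 transcript of the NMD class. Srsf5 lies on the plus strand at chr12:80945504-80950507 with 12 annotated transcripts, of which 5 are protein coding, 3 retain an intron and 1 is of the NMD class. Srsf11 has the most, with 19 transcripts, 11 of them with a retained intron, and Srsf10 has none of the NMD class. The tables hold 1 count per gene, so coding and decay-targeted transcripts cannot be told apart in the values below. Of the 31-base words of each gene's transcripts, 14.1% for Srsf5, 13.8% for Srsf3 and 10.8% for Srsf10 also occur in transcripts of other genes, and 2.35% or fewer for the other 7. The genes that shared the most words had few counts: Gm12966 reached at most 0.217% of the Srsf5 count in a library, Gm12355 0.933% of Srsf3 and Gm5446 0.475% of Srsf10. How reads that fit more than 1 gene were assigned was not tested. Srsf2 lies within the span of Mettl23 and overlaps Mfsd11 (655 bases), both on the opposite strand. Srsf1 overlaps Gm11508 (634 bases) and Srsf4 overlaps Gm12992 (2229 bases), also on the opposite strand. On the same strand, A930004J17Rik overlaps Srsf4 (4610 bases) and Gm43362 overlaps Srsf11 (2470 bases). Whether strand was used in counting is not given in the sources used here.

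The promoters of 5 genes are shown, from 250 bases before to 50 after the RefSeq transcript start (GRCm38.p6), because the first 4 rose together at 3 h of stretch and Srsf11 passed the test in none of the stretch comparisons. Each is written 5′ to 3′ along the gene, and capitals mark a TATA box (TATAAA), the core of the cyclic AMP response element (TGACGT) or an ETS core (CCGGAA), searched on both strands.
Srsf5, chr12:80945249-80945548, plus strand: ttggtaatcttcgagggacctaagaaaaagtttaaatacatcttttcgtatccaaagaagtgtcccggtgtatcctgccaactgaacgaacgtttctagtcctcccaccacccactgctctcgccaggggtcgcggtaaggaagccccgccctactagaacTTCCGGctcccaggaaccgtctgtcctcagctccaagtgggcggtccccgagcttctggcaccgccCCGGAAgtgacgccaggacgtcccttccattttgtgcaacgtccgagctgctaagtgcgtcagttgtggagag
Srsf2, chr11:116853045-116853344, minus strand: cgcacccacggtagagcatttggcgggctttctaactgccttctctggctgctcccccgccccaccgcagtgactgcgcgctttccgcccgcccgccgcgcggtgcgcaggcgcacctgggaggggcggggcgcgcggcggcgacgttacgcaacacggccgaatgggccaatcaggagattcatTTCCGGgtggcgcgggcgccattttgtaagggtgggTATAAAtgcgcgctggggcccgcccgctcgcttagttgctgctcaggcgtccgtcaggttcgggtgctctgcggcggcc
Srsf3, chr17:29032410-29032709, plus strand: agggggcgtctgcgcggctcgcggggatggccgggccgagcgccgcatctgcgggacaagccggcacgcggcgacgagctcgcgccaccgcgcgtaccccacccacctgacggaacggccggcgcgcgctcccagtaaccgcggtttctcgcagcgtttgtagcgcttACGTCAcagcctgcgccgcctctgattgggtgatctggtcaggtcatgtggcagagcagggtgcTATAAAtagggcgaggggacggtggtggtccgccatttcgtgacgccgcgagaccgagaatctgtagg
Srsf6, chr2:162931258-162931557, plus strand: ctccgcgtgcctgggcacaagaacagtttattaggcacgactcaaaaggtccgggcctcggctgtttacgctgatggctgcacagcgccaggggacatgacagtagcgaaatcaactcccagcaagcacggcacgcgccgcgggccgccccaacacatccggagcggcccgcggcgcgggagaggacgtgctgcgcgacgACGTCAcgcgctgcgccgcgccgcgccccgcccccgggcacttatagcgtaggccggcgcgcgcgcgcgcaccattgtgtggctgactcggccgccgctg
Srsf11, chr3:158036557-158036856, minus strand: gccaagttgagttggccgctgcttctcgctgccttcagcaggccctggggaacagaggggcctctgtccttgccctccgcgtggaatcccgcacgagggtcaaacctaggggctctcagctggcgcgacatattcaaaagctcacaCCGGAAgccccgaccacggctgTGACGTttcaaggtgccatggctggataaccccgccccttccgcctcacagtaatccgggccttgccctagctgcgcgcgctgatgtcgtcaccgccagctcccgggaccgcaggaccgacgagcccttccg

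Srsf5 held 2 ETS cores and none of the other marked motifs. Srsf2 and Srsf3 held a TATA box, Srsf3, Srsf6 and Srsf11 a TGACGT core, and Srsf1, Srsf2, Srsf4, Srsf5, Srsf7 and Srsf11 an ETS core. Over the first-listed promoter of each of 27025 genes, 14.2% held TATAAA, 7.64% TGACGT and 15.2% CCGGAA on either strand. A GC box (GGGCGG) was in 9 of the 10 SR promoters against 35.9% of all, and CCAAT in 4 against 37.9%. The SR promoters were 56% to 77.7% G and C, against a median of 52.7% over all. The part of base composition in these motif shares was not tested. Between all these motifs, 2 pairs of matches overlapped in the SR promoters. No marked motif was shared by the 4 genes that rose together, and a match is only a description of letters in this window.

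In cells without stretch, every SR gene was lower in differentiated cells than in myoblasts. All 10 were called lower (10 of 10, against 44.4% of 16582 genes tested, edgeR adjusted p under 0.05), with a median log2 difference of -1.10 against 0.01 over all genes. Most SR-related genes and other splicing regulators were lower too. Of 26 SR-related genes with a repeat domain 24 were called lower and 0 higher (median -0.54). Of 21 other splicing regulators 17 were lower and 3 higher (median -0.94). Of 10 NMD factors 6 were lower and 3 higher (median -0.16). Of 15 SR protein kinases, phosphatases and an importer 7 were lower and 6 higher (median -0.08), beside the 44.4% of all genes called lower. The share of all genes called higher is not given here. Since each stage came from its own experiments, stage and experiment cannot be told apart, and fewer cells of a type and less RNA per cell cannot be told apart in bulk RNA. Srsf7, which encodes an SR protein with a zinc knuckle, differed most, at 117 to 134 CPM (median 127) in 12 myoblast libraries and 46.7 to 56.4 CPM (median 52.6) in 12 differentiated libraries. The log2 difference of Srsf7 was -1.28 (SE 0.03, edgeR adjusted p = 2.5e-25). Srsf1, Srsf2 and Srsf9, of which Srsf1 is the founding splicing activator of the family, differed by -1.25, -1.26 and -1.26. These values lay close to that of Srsf7, and the order among these genes was not tested. Srsf5 differed least: its 12 myoblast libraries ranged from 187 to 249 CPM (median 208) and its 12 differentiated libraries from 133 to 207 CPM (median 173), so the ranges overlapped. The log2 difference of Srsf5 was -0.34 (SE 0.05, edgeR adjusted p = 1.9e-06). Together the 10 genes took 2289 to 2442 CPM on average in the non-stretched myoblast groups and 1173 to 1298 CPM in the non-stretched differentiated groups.

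Levels between genes were compared per kilobase of the principal annotated transcript. In non-stretched myoblasts Srsf2 stood highest at 205 ± 9.62 CPM per kb (SD, n = 12), followed by Srsf3 at 151 ± 7.09 and Srsf5 at 135 ± 10.8. Srsf6 at 88.4 ± 4.05 and Srsf1 at 85.5 ± 3.52 lay within their spread of each other, and Srsf4 stood lowest at 37.1 ± 1.53. In non-stretched differentiated cells Srsf5 came first at 109 ± 18.2 CPM per kb, ahead of Srsf2 at 87.4 ± 6.75 and Srsf3 at 71.0 ± 4.79, and the intervals of Srsf5 and Srsf2 overlapped. Srsf4, Srsf10 and Srsf7 closed the order at 24.3, 24.1 and 23.1 CPM per kb, within their spread. Over the merged exons of all transcripts, a length chosen as an alternative after the data were seen, Srsf2 led at both stages with 131 and 56.1 CPM per kb, and Srsf3 moved from rank 2 to rank 6 in myoblasts.

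Under stretch Srsf5 was called higher at 3 h and lower at 6 h at both stages, and the other SR genes were called in 0 to 3 of the 6 comparisons. In myoblasts none of the 10 was called at 1 h (background 1.67% of genes higher and 4.24% lower by edgeR; 1 of 10 had an unadjusted p under 0.05, and DESeq2 called 0). At 3 h in myoblasts 4 of 10 were called higher (background 16%) and 1 lower (15.8%), and at 6 h 2 higher (14.1%) and 2 lower (13.0%). In differentiated cells 1 of 10 was called higher at 1 h (background 0.193%) and 0 lower (0.470%). At 3 h in differentiated cells 4 of 10 were called higher (10.8%) and 0 lower (11.4%), and at 6 h 6 of 10 were called higher (11.5%) and 1 lower (10.8%). The median log2 fold change of the 10 genes was 0.17 at 6 h in differentiated cells against 0.00 over all genes, and between -0.03 and 0.04 in the other 5 comparisons. Stretched and non-stretched libraries did not overlap for 13.3%, 30.8% and 28.7% of genes in myoblasts at 1, 3 and 6 h. In differentiated cells these shares were 6.37%, 25.9% and 26.4%. Of the 10 SR genes, 0, 4 and 1 lay fully above and 0, 1 and 2 fully below in myoblasts. In differentiated cells 2, 4 and 6 lay above and 0, 0 and 1 below. Statements of no overlap below stand beside these shares.

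Most changes were small. With the study's added limit of a log2 change of 0.58 (1.5-fold), Srsf5 at 6 h was called at both stages, where 2.17% of genes passed in myoblasts and 2.04% in differentiated cells. No SR gene passed that limit at 1 h (background 1.25% in myoblasts and 0.270% in differentiated cells) or at 3 h (1.71% and 1.63%). Across the 6 comparisons the root mean square log2 fold change was 0.50 for Srsf5, above 97.7% of 14010 genes tested in all 6, 0.24 for Srsf2, 0.18 for Srsf3 and Srsf6 and 0.04 for Srsf11, against a median of 0.13 over those genes. The 6 comparisons use different libraries.

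**Figure D1:**
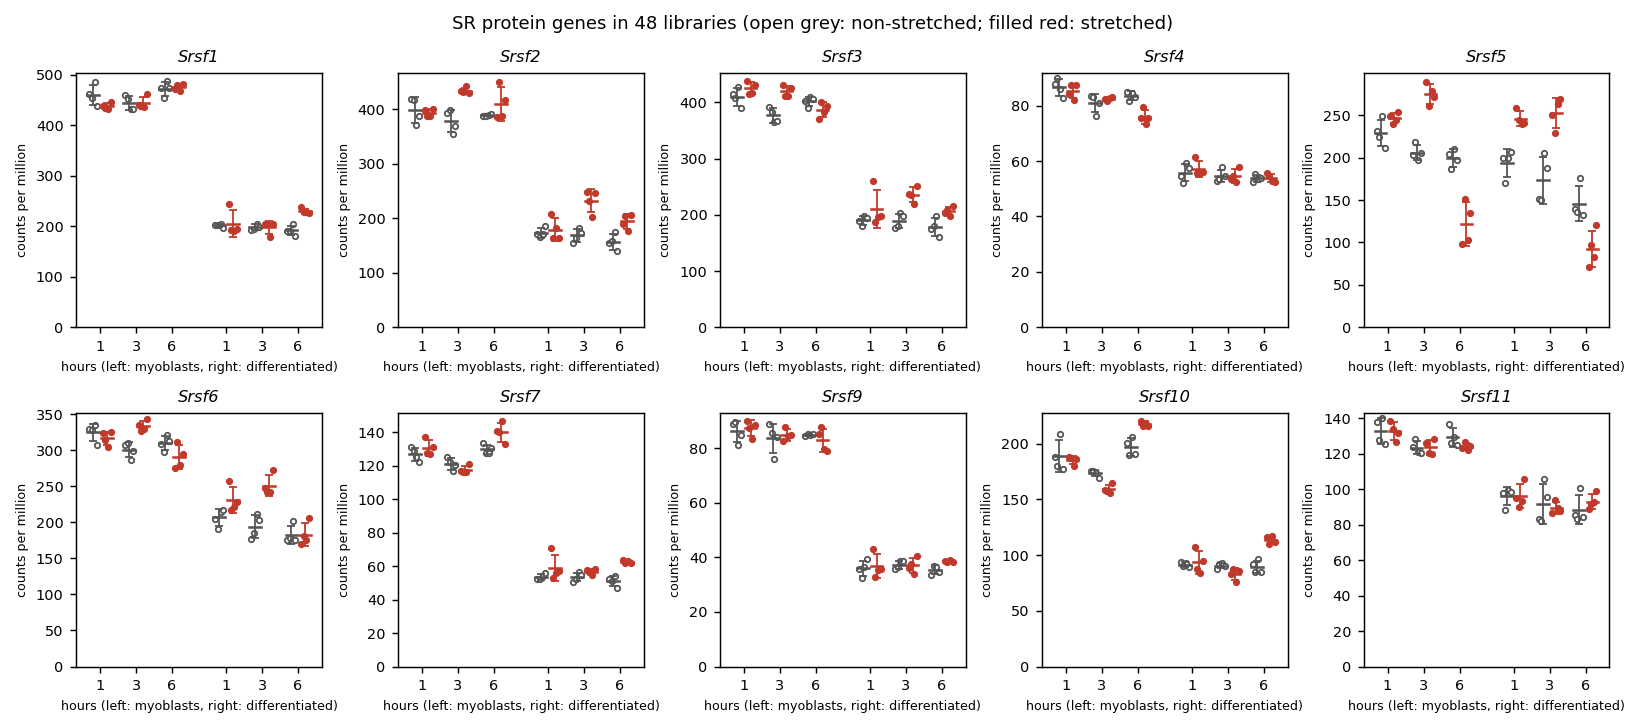
CPM (vertical axis, from 0) of each SR gene in all 48 libraries by hour, with myoblasts at the left and differentiated cells at the right of each panel. Open grey points are non-stretched and filled red points stretched libraries, horizontal lines are means of 4 and bars SD, and Srsf5 is above its controls at 3 h (261 to 289 against 198 to 218 in myoblasts) and below them at 6 h (98.4 to 151 against 187 to 210).

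Srsf5 encodes an SR protein with a pair of RNA recognition motifs and was described in liver as an insulin-inducible gene. After 1 h in myoblasts it was at 230.8, 224, 249 and 212 CPM without stretch (replicates 7 to 10) and at 249, 240, 244 and 254 CPM with stretch, so the groups overlapped through replicate 9. The log2 fold change was 0.11 (SE 0.04, edgeR adjusted p = 0.214), and without non-stretched replicate 9 it was 0.15 (adjusted p = 0.0272). After 1 h in differentiated cells Srsf5 was at 199, 170, 200 and 207 CPM without stretch and at 259, 245, 239 and 241 CPM with stretch, and every stretched library was above every control. Its log2 fold change was 0.34 (SE 0.06, edgeR adjusted p = 0.045). That call was lost without any 1 of the 8 libraries, with adjusted p from 0.0515 to 0.151. Without replicate 4 the log2 fold change was 0.32 (adjusted p = 0.0552), and within experiments B25 and B28 it was 0.40 and 0.25, the latter from 1 stretched library.

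After 3 h Srsf5 was higher with stretch at both stages, with no overlap. In myoblasts it was at 203, 218, 198 and 206 CPM without stretch and at 289, 261, 279 and 272 CPM with it, a log2 change of 0.41 (SE 0.03, edgeR adjusted p = 5.75e-06). In differentiated cells the controls were at 151, 150, 205 and 187 CPM and the stretched libraries at 250, 229, 263 and 269 CPM, a log2 change of 0.55 (SE 0.10, edgeR adjusted p = 0.00303). The differentiated controls of experiment B25 were lower than those of B28, and the change was 0.67 within B25 and 0.44 within B28.

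After 6 h the direction was the opposite at both stages, again with no overlap. In myoblasts Srsf5 was at 204, 187, 210 and 197 CPM without stretch and at 98.4, 151, 103 and 135 CPM with it, 0.617 times the control level. The log2 fold change was -0.70 (SE 0.11, edgeR adjusted p = 0.00123). In differentiated cells the controls were at 139, 135, 176 and 133 CPM and the stretched libraries at 70.6, 96.9, 83.3 and 120 CPM, a log2 change of -0.66 (SE 0.15, edgeR adjusted p = 0.0102). The stretched libraries spread widely, with replicates 8 and 10 above replicates 7 and 9 at both stages. Within experiments the changes were -0.68 in B27, -0.79 in B31, -0.73 in B25 and -0.61 in B28, so the fall was of similar size in each.

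**Figure D2:**
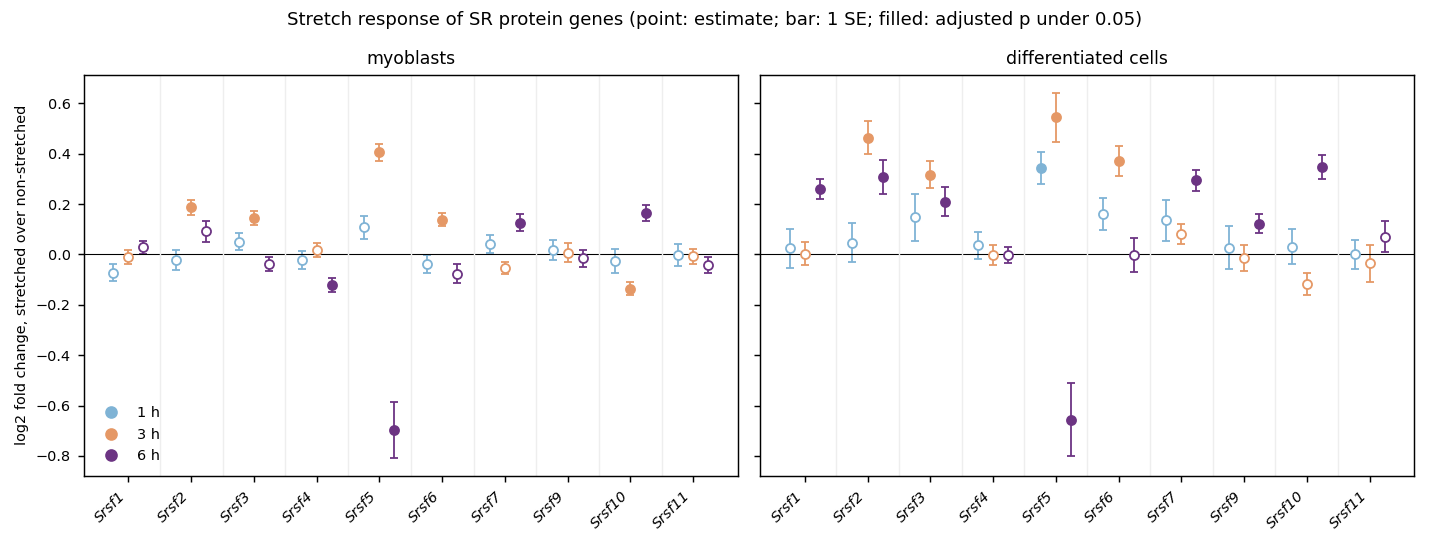
Log2 fold change of stretched over non-stretched libraries (vertical axis) for each SR gene at 1, 3 and 6 h, in myoblasts (left) and differentiated cells (right), with points as estimates, bars as 1 SE and filled points for an adjusted p under 0.05. Srsf5 runs from 0.41 at 3 h to -0.70 at 6 h in myoblasts and from 0.55 to -0.66 in differentiated cells.

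Srsf2, Srsf3 and Srsf6 rose at 3 h at both stages. Srsf2 encodes the enhancer-binding protein also known as SC35, Srsf3 the smallest SR protein and Srsf6 a relative of Srsf4 and Srsf5. In myoblasts at 3 h Srsf2 was at 392.4, 398, 354 and 368 CPM without stretch and at 432, 432, 442 and 430 CPM with it, a log2 change of 0.19 (SE 0.03, edgeR adjusted p = 0.00063). The differentiated controls of Srsf2 at 3 h were at 155, 163, 182 and 172 CPM and the stretched libraries at 248, 232, 202 and 245 CPM, a log2 change of 0.46 (SE 0.07, edgeR adjusted p = 0.00116). In neither stage did the groups overlap, as for 30.8% of genes in myoblasts and 25.9% in differentiated cells at 3 h.

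Srsf3 was at 392.4, 383, 365 and 367 CPM in the 3 h myoblast controls and at 431, 412, 411 and 426 CPM after stretch, a log2 change of 0.14 (SE 0.03, edgeR adjusted p = 0.00105). In differentiated cells Srsf3 was at 176, 181, 202 and 197 CPM without and 238, 235, 219 and 251 CPM with stretch, a log2 change of 0.32 (SE 0.05, edgeR adjusted p = 0.00218). The stretched libraries of Srsf3 were all above the controls at both stages. Srsf6 in myoblasts changed by 0.14 on the log2 scale (edgeR adjusted p = 0.00187), from 301 ± 10.6 to 334 ± 7.48 CPM (SD, n = 4). In differentiated cells Srsf6 was at 177, 185, 211 and 203 CPM without and 247, 242, 242 and 273 CPM with stretch, a log2 change of 0.37 (SE 0.06, edgeR adjusted p = 0.00184). The groups of Srsf6 did not overlap at 3 h in either stage.

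At 6 h these 3 genes no longer moved together. In differentiated cells Srsf2 was at 155, 158, 174 and 139 CPM without and 190, 203, 177 and 206 CPM with stretch, a log2 change of 0.31 (SE 0.07, edgeR adjusted p = 0.00932), and Srsf3 had a log2 change of 0.21 (SE 0.06, edgeR adjusted p = 0.0252). Srsf6 was at 183 ± 12.8 CPM without and 183 ± 15.7 CPM with stretch (SD, n = 4). In myoblasts at 6 h none of the 3 was called, with log2 fold changes of 0.09, -0.04 and -0.08 for Srsf2, Srsf3 and Srsf6, although Srsf6 was called without stretched replicate 8 (-0.11, adjusted p = 0.0283). Stretched myoblast replicates 8 and 10, the libraries with the most Srsf5, also held the most Srsf2, at 450 and 417 CPM against 385 and 387 CPM in replicates 7 and 9. The call of Srsf3 in differentiated cells was lost without any 1 of 6 libraries (non-stretched replicates 7, 8 and 10 and stretched replicates 7, 8 and 10; adjusted p from 0.0514 to 0.0655) with the replicate block (adjusted p = 0.0622) and in 1 model of all 24 libraries of the stage.

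In myoblasts Srsf10 ran opposite to Srsf5, lower at 3 h and higher at 6 h, and in differentiated cells it was higher at 6 h. Srsf10 encodes a splicing repressor that becomes active when dephosphorylated, as after heat shock. In myoblasts at 3 h it was at 176, 176, 174 and 170 CPM without stretch and at 159, 157, 156 and 165 CPM with it, a log2 change of -0.14 (SE 0.03, edgeR adjusted p = 0.00124). At 6 h in myoblasts it was at 201, 190, 206 and 191 CPM without and 221, 216, 218 and 216 CPM with stretch, a log2 change of 0.16 (SE 0.03, edgeR adjusted p = 0.00323). Neither pair of groups overlapped. In differentiated cells Srsf10 was not called at 3 h (log2 fold change -0.12, SE 0.04, edgeR adjusted p = 0.076; -0.15 and adjusted p = 0.043 without stretched replicate 8). At 6 h the differentiated controls were at 91.7, 84.8, 96.4 and 84.9 CPM and the stretched libraries at 117, 110, 118 and 111 CPM, a log2 change of 0.35 (SE 0.05, edgeR adjusted p = 0.00105).

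Srsf1, Srsf7 and Srsf9 were called after 6 h, in differentiated cells all 3 and in myoblasts Srsf7 alone. Srsf1 in differentiated cells was at 191, 191, 204 and 181 CPM without stretch and at 237, 228, 228 and 226 CPM with it, a log2 change of 0.26 (SE 0.04, edgeR adjusted p = 0.0019). In myoblasts at 6 h its log2 fold change was 0.03 (SE 0.03, edgeR adjusted p = 0.487). The 4 stretched differentiated libraries of Srsf1 lay above all controls, and the myoblast groups overlapped.

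Srsf7 in differentiated cells was at 52.4, 51.0, 54.1 and 46.7 CPM without stretch and at 63.6, 61.9, 63.1 and 62.1 CPM with it, a log2 change of 0.29 (SE 0.04, edgeR adjusted p = 0.00147) with no overlap. In myoblasts Srsf7 was at 130 ± 2.67 CPM without and 140 ± 5.76 CPM with stretch (SD, n = 4), a log2 change of 0.13 (SE 0.03, edgeR adjusted p = 0.0194). These myoblast groups overlapped, and the call was lost without non-stretched replicate 8, non-stretched replicate 9 or stretched replicate 9 (adjusted p from 0.0527 to 0.0575). Srsf9, which encodes the SR protein closest to SRSF1 in domain make-up, went from 35.4 ± 1.59 to 38.6 ± 0.395 CPM in differentiated cells (SD, n = 4), a log2 change of 0.12 (SE 0.04, edgeR adjusted p = 0.0383). The call of Srsf9 was lost without any 1 of 6 libraries (non-stretched replicates 7 and 10 and all 4 stretched replicates; adjusted p from 0.0671 to 0.0976), with no filter on low counts (0.0828), with the replicate block (0.0633) and in 1 model of all 24 libraries of the stage.

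Srsf4 and Srsf11 changed little. Srsf4, which encodes a large SR protein with a long repeat domain, was called once, at 6 h in myoblasts, with 84.9, 81.8, 84.7 and 83.2 CPM without stretch and 75.7, 79.3, 73.2 and 75.5 CPM with it. Its log2 fold change there was -0.12 (SE 0.03, edgeR adjusted p = 0.00942), with no overlap, and the other 5 log2 fold changes of Srsf4 lay between -0.02 and 0.04. Srsf11, which encodes a protein of the exon-definition complexes, was called in none of the 6 comparisons, with log2 fold changes from -0.04 to 0.07. Without non-stretched replicate 9, Srsf11 was called at 6 h in differentiated cells (log2 change 0.14, edgeR adjusted p = 0.0345). That library held 101 CPM against 83.0 to 85.4 CPM in the other 3 controls. Srsf12, a further family member outside the 10, had at most 3 counts in a library, 24 in all 48, and was not tested in any stretch comparison.

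The stretch effects of the stages were compared gene by gene, as the differentiated minus the myoblast log2 fold change in edgeR. At 1 h no SR gene was called (background 0%, 0 of 16299 genes; 2 of 10 SR genes had an unadjusted p under 0.05, and DESeq2 called 0 of them). At 3 h none was called either (background 1.79%; 4 of 10 with an unadjusted p under 0.05), although the largest differences were 0.27 for Srsf2 (SE 0.08, edgeR adjusted p = 0.103) and 0.23 for Srsf6 (SE 0.07, adjusted p = 0.112). DESeq2 called these 2 genes, with adjusted p = 0.0289 for Srsf2 and 0.0283 for Srsf6, and edgeR called Srsf6 with the experiment as a covariate (adjusted p = 0.0219). Without non-stretched differentiated replicate 9 edgeR called Srsf6 (adjusted p = 0.0398), and without stretched differentiated replicate 9 it called Srsf2 (adjusted p = 0.00803). At 6 h 1 of 10 was called (background 5.18%), Srsf1, with a difference of 0.23 (SE 0.05, edgeR adjusted p = 0.0161). For Srsf5 the differences were 0.23, 0.13 and 0.03 at 1, 3 and 6 h (SE 0.08, 0.11 and 0.20), and none was called.

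At 6 h the count rested on the processing. Srsf3 (difference 0.24, edgeR adjusted p = 0.0541) was called with other filters and with RLE scaling, Srsf10 (0.18, adjusted p = 0.0876) with the replicate block, and DESeq2 called Srsf3, Srsf7 and Srsf10 beside Srsf1. Without non-stretched differentiated replicate 9 edgeR called 5 genes, Srsf1, Srsf3, Srsf7, Srsf10 and Srsf11. Srsf3 was also called without non-stretched myoblast replicate 8, stretched myoblast replicate 10 or stretched differentiated replicate 9 (adjusted p from 0.0401 to 0.0473). All 10 differences at 6 h were above 0, from 0.03 for Srsf5 to 0.24 for Srsf3, with a median of 0.15 against -0.0029 over all genes tested. The 10 genes were measured in the same libraries, so these signs are not independent of each other.

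The change of the stretch effect with time was tested within each stage. Comparisons that involve the same hour share libraries. From 3 to 6 h 6 of 10 SR genes were called in myoblasts (background 26.5%), with differences of -1.10 for Srsf5 (SE 0.12, edgeR adjusted p = 4.04e-07), -0.21 for Srsf6, -0.18 for Srsf3, -0.13 for Srsf4, 0.19 for Srsf7 and 0.30 for Srsf10. In differentiated cells 3 of 10 were called from 3 to 6 h (background 12.0%), with -1.20 for Srsf5 (SE 0.17, edgeR adjusted p = 0.000148), -0.37 for Srsf6 and 0.47 for Srsf10. From 1 to 6 h Srsf5 and Srsf10 were called at both stages (2 of 10, background 21.1% in myoblasts and 11.9% in differentiated cells), with -0.80 and 0.19 in myoblasts and -1.002 and 0.31 in differentiated cells. From 1 to 3 h Srsf2 was called in differentiated cells (1 of 10, background 5.15%, difference 0.41), and Srsf2 and Srsf6 in myoblasts (2 of 10, background 10.9%, differences 0.20 and 0.17).

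The differentiated time counts moved with 1 library and with the blocks. From 3 to 6 h they also moved with DESeq2 and with a minimum of 10 counts (4 of 10 each, adding Srsf1). Without stretched 1 h replicate 4, Srsf3 was also called from 1 to 3 h (2 of 10), Srsf1, Srsf2 and Srsf7 were also called from 1 to 6 h (5 of 10), and Srsf1 and Srsf7 from 3 to 6 h (5 of 10). The replicate block and the experiment covariate each gave the same counts of 5 and 5, and 3 of 10 from 1 to 3 h. Both settings fit stretched 1 h replicate 4, the only library with its number and code, with a term of its own. They are therefore not separate from leaving that library out. The 1 to 3 h call of Srsf2 in differentiated cells was lost without any 1 of 7 libraries (non-stretched 1 h replicate 10, stretched 1 h replicates 7 and 9, non-stretched 3 h replicates 7 and 8 and stretched 3 h replicates 7 and 10; adjusted p from 0.0633 to 0.0729). In myoblasts the 1 to 3 h call of Srsf2 was lost without non-stretched 3 h replicate 9 (adjusted p = 0.0511), and without non-stretched 1 h replicate 9 Srsf10 was added (adjusted p = 0.0107), and without stretched 6 h replicate 8 Srsf5 (adjusted p = 0.0336). The 3 to 6 h call of Srsf4 was lost without non-stretched 3 h replicate 9 or stretched 6 h replicate 9 (adjusted p = 0.0562 and 0.0523).

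Between 1 and 6 h without stretch, no SR gene was called at either stage (background 1.88% in myoblasts and 0.0123% in differentiated cells; 1 and 2 of 10 with an unadjusted edgeR p under 0.05, and DESeq2 called 0 and 0). The level of Srsf5 went from 194 ± 16.4 to 146 ± 20.3 CPM in non-stretched differentiated cells (SD, n = 4), a log2 difference of -0.41 that did not pass the test (edgeR adjusted p = 0.179). With the replicate block that difference was called (adjusted p = 0.0484), and with the experiment covariate so was that of Srsf6 (-0.18, adjusted p = 0.0418).

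Other genes of the splicing machinery were counted beside the SR genes by lists chosen with earlier results known. At 3 h in myoblasts 12 of 26 tested SR-related genes with a repeat domain rose and 3 fell (16% and 15.8% of all genes), and at 6 h 5 rose and 4 fell (14.1% and 13.0%). In differentiated cells 7 of 26 rose and 1 fell at 3 h (10.8% and 11.4% of all genes), and 14 rose and 1 fell at 6 h (11.5% and 10.8%). At 6 h in differentiated cells the log2 fold change was 0.45 for Luc7l, 0.49 for Tra2a and 0.38 for Luc7l3, the 3 with the lowest adjusted p, all linked to splice site choice. Among 21 other splicing regulators, against the same shares of all genes, 10 rose and 2 fell at 3 h and 5 rose and 5 fell at 6 h in myoblasts, and 8 rose and 0 fell at 3 h and 13 rose and 0 fell at 6 h in differentiated cells. The lowest adjusted p among the last belonged to Hnrnph1, Hnrnpm and Hnrnpc, which encode hnRNP proteins, with log2 fold changes of 0.41, 0.26 and 0.24. Of 10 NMD factors 6 rose and 0 fell at 3 h and 3 rose and 3 fell at 6 h in myoblasts, and 5 rose and 0 fell at 3 h and 2 rose and 1 fell at 6 h in differentiated cells, again beside those shares. The median absolute log2 fold change at 6 h in differentiated cells was 0.23 for the SR genes, 0.14 for the SR-related genes, 0.15 for the other splicing regulators, 0.10 for the NMD factors and 0.12 for all genes. In each other comparison the median of the SR genes was below that of all genes. In myoblasts these were 0.032 and 0.068 at 1 h, 0.095 and 0.103 at 3 h and 0.085 and 0.111 at 6 h. In differentiated cells they were 0.041 and 0.066 at 1 h and 0.099 and 0.1075 at 3 h. None of the members of these other lists passed the 0.58 limit in any of the 6 comparisons, apart from Clk1 at 1 h in differentiated cells in the list of kinases.

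**Figure D3:**
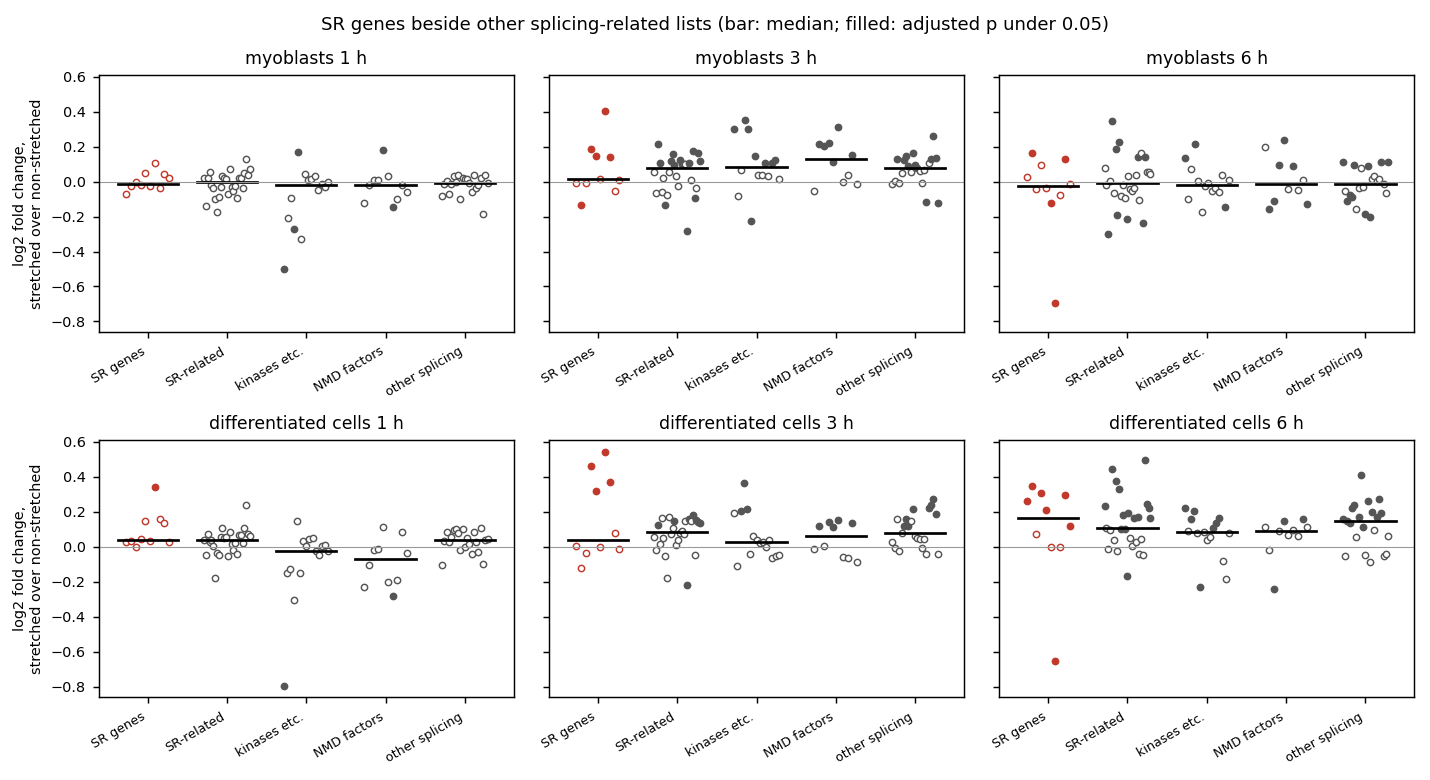
Log2 fold change of stretched over non-stretched libraries (vertical axis) for the SR genes (red) and members of 4 other lists (grey) in each of the 6 comparisons, 1 point per gene, filled for an adjusted p under 0.05 and with bars as medians. At 6 h Srsf5 lies apart from the other SR genes, at -0.70 in myoblasts and -0.66 in differentiated cells.

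Clk1 and Clk4, kinases that phosphorylate SR proteins in the nucleus, fell at 1 h in myoblasts and rose at 3 and 6 h. Clk1 at 1 h was at 49.9 ± 7.3 CPM without and 35.4 ± 1.41 CPM with stretch in myoblasts, a change of -0.50 on the log2 scale (edgeR adjusted p = 0.00462). The differentiated libraries at 1 h held Clk1 at 58.6 ± 4.25 CPM without and 33.8 ± 5.62 CPM with stretch (-0.79, edgeR adjusted p = 0.0135). Clk4 fell at 1 h in myoblasts (-0.27, adjusted p = 0.0189) and not past the test in differentiated cells (-0.30, adjusted p = 0.12). At 3 h Clk1 (0.30) and Clk4 (0.35) rose in myoblasts and Clk4 (0.36) and Clk3 (0.20) in differentiated cells, where Clk1 was at 0.19 (edgeR adjusted p = 0.052). At 6 h Clk1 and Clk4 rose at both stages, with 0.13 and 0.22 in myoblasts and 0.22 and 0.20 in differentiated cells, and Clk3 rose in differentiated cells (0.16). Clk2 was not called, with log2 fold changes from -0.21 to 0.09. Of the SRPK kinases, Srpk1 rose at 3 h in myoblasts (0.10) and at 6 h in differentiated cells (0.16), Srpk2 rose at 3 h (0.12) and fell at 6 h (-0.14) in myoblasts, and Srpk3 was tested in differentiated cells only and not called.

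Markers of dividing cells moved in some of the same comparisons. At 3 h in differentiated cells 3 of 7 dividing-myoblast markers were called higher (10.8% of all genes), Ccnb1 (0.34), Cdk1 (0.22) and Top2a (0.12), with a summed level of 402 to 433 CPM without and 417 to 485 CPM with stretch. At 6 h in differentiated cells Myf5 (0.51) was the 1 marker called, with summed levels of 295 to 398 and 324 to 359 CPM. At 6 h in myoblasts 4 of 7 were called lower and 1 higher (13.0% and 14.1% of all genes), with 1971 to 2107 CPM without and 1745 to 1997 CPM with stretch. The 8 differentiated muscle markers had median log2 fold changes of -0.03, -0.01 and -0.13 at 1, 3 and 6 h in differentiated cells. The part of cell division in the SR gene changes was not tested.

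The genes with 6 stretch responses most like those of Srsf5, by the root mean square difference of the 6 log2 fold changes over 14010 genes, were Slc9a4 (0.15), Usp44 (0.19), Artn (0.19), Fzd6 (0.20) and Fam189a1 (0.20). Slc9a4, which encodes a sodium-proton exchanger, had log2 fold changes of 0.55 at 3 h and -0.56 at 6 h in myoblasts, and 0.71 and -0.70 in differentiated cells. The likeness did not hold at every hour. At 3 h in myoblasts Artn had -0.01 where Srsf5 had 0.41. At 1 h Fzd6 had -0.11 in myoblasts and -0.06 in differentiated cells, where Srsf5 had 0.11 and 0.34. The SR gene nearest to Srsf5 was Srsf6 (0.40) and the farthest was Srsf10 (0.66).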

How the data were processed

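The authors deposited 2 tables of raw gene counts, 1 per stage, for 48 libraries (stranded poly(A) mRNA kit, paired-end sequencing). The submitters' notes name mm10, STAR, Salmon and DESeq2, and the strand setting is not given in the sources used here. The labels give the molecule as nuclear RNA, while the study's methods describe RNA extracted from washed cells and mention no isolation of nuclei. For stretched myoblasts at 1 h, the column of replicate 9 coded B31 was matched to the only such title, which writes B231. Depth was 48447318 to 77080730 counts per library. edgeR 4.0.16 (TMM, filterByExpr, quasi-likelihood test, Benjamini-Hochberg over all genes tested) gave fold changes and adjusted p, and a gene was called at an adjusted p under 0.05. SE is the log2 fold change over the root of F. Stage and time interactions were fitted on counts of both groups, with 4 libraries a group. DESeq2, RLE scaling, filters, blocks, 1 model per stage and leaving out each library were alternatives. Scripts were tested on simulated data. The members and lists were chosen with earlier results of these data known. All 10 members are named; from other lists, the 3 lowest adjusted p among called, every CLK and SRPK kinase, and the 5 genes most like Srsf5. Protein levels, phosphorylation and splicing were not analysed here, and 1 named gene is not reported here.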

Additional observations from a re-analysis of the deposited data

Results flagged for a closer look

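Of 120 groups of 4 libraries (10 genes in 12 groups), 10 held a library far from the other 3, where chance gives about 1 in 20. In stretched differentiated cells at 1 h, replicate 4 was above the others for Srsf1 (244.6 CPM against 189.5 to 193.9), Srsf3 (259.7 against 187.1 to 198.8) and Srsf4 (61.59 against 55.74 to 55.94). In non-stretched differentiated cells at 6 h, replicate 9 was above the others for Srsf5 (176.1 CPM against 132.8 to 139.3), Srsf6 (201.9 against 175.1 to 178.7) and Srsf11 (100.7 against 82.98 to 85.44). Single libraries stood apart for Srsf1 in stretched differentiated cells at 3 h (replicate 9, 179.1 CPM against 204 to 205.1), Srsf6 in the same group (replicate 10, 272.7 against 242 to 247), Srsf7 in stretched myoblasts at 3 h (replicate 10, 121 against 116.3 to 117) and Srsf11 in non-stretched differentiated cells at 1 h (replicate 8, 88.32 against 98.05 to 99.47).

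The stretch effect differed between stages at 6 h for Srsf1 by 0.2258 (log2, differentiated minus myoblast, edgeR). Between times in myoblasts it differed from 1 to 3 h for Srsf2 (0.2024) and Srsf6 (0.1705), and from 1 to 6 h for Srsf5 (-0.8033) and Srsf10 (0.1902). From 3 to 6 h in myoblasts it differed for Srsf3 (-0.177), Srsf4 (-0.1342), Srsf5 (-1.097), Srsf6 (-0.2108), Srsf7 (0.1854) and Srsf10 (0.3045). In differentiated cells it differed from 1 to 3 h for Srsf2 (0.4144), from 1 to 6 h for Srsf5 (-1.002) and Srsf10 (0.3139), and from 3 to 6 h for Srsf5 (-1.2), Srsf6 (-0.3723) and Srsf10 (0.467).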

How the results depend on the processing

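No called SR gene changed direction under any alternative run, and DESeq2, RLE scaling, a minimum of 10 counts and the experiment covariate kept every one of the calls they were run on. Counts of called SR genes moved as follows. Between stages, DESeq2 gave 2 and the experiment covariate 1 at 3 h, and at 6 h DESeq2 gave 4, and RLE scaling, no filter, a minimum of 10 counts and the replicate block 2 each. In differentiated cells the replicate block and the experiment covariate each gave 3 from 1 to 3 h, 5 from 1 to 6 h and 5 from 3 to 6 h, and without stretch 1 and 2 between 1 and 6 h. Both fit stretched 1 h replicate 4 with a term of its own, so they are not separate from leaving that library out. DESeq2 and a minimum of 10 counts each gave 4 from 3 to 6 h in differentiated cells and 3 from 1 to 6 h in myoblasts, adding Srsf1. With no filter 6 were called at 6 h in differentiated cells. One model of the 24 differentiated libraries gave 0 at 1 h, and at 6 h lost Srsf3 and Srsf9. With the 0.58 limit the counts were 0 at 3 h and 1 at 6 h in myoblasts, and 0, 0 and 1 at 1, 3 and 6 h in differentiated cells. Leaving out 1 library gave 0 to 1, 5 to 5 and 3 to 5 in myoblasts at 1, 3 and 6 h, and 0 to 0, 4 to 5 and 5 to 8 in differentiated cells. Between stages it gave 0 to 0, 0 to 1 and 1 to 5 at these hours. Between times it gave 1 to 3, 2 to 3 and 5 to 6 in myoblasts and 0 to 2, 2 to 5 and 3 to 5 in differentiated cells (1 to 3, 1 to 6 and 3 to 6 h), and without stretch 0 to 1 and 0 to 0. The cause was not tested. Same-numbered stretched and non-stretched libraries of an hour showed little pairing. Their deviations correlated at -0.0697 to 0.101, and 1 pair of 23 was over 0.1. Of the 23 stretched libraries 8 were closest to the control of their own number. Pairing across hours was not tested. The replicate block lost the 6 h calls of Srsf3 and Srsf9 in differentiated cells. The lowest SR gene count was 1770, and counting error was not set against the spread between libraries.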
